A study of Mus musculus with 3 samples.

Results

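The 10 genes described here carry or read mechanical signals: the ion channel genes Piezo1, Piezo2 and Trpv4, the prostaglandin enzyme gene Ptgs2, and 6 genes of the YAP pathway, Yap1, Wwtr1, Tead1, Lats2, Ankrd1 and Amotl2. They were picked by symbol out of 32285 genes counted, and each symbol matched 1 row. The cells were freed with collagenase A and dispase 2 from the mandibular condyle, the jaw side of the temporomandibular joint, of wild-type C57BL6 mice of 3 ages: embryos of day 16.5 (E16.5), newborns (P0) and adults of 13 weeks (13w). For each age 7 to 20 mice were pooled, live cells (Calcein+, DAPI-) were sorted, and 1 single-cell library was made by the 10x 3' method. The groups carry no allele or agent and differ in age alone by their labels. With 1 library per age there are no replicates, so no test was made, a difference between ages cannot be told apart from a difference between libraries, and every interval given covers counting error only.

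Piezo1 and Piezo2 are channels that open when the membrane is stretched, and Trpv4 is a calcium-permeable channel opened by osmotic and mechanical stimuli; Piezo1 and Trpv4 are both known to work in chondrocytes. In the Hippo pathway, the kinase Lats2 phosphorylates the coactivators YAP (gene Yap1) and TAZ (gene Wwtr1) and holds them out of the nucleus, whereas stretch and a stiff matrix let them enter it and bind TEAD factors such as Tead1. Ankrd1 and Amotl2 are widely used YAP/TAZ target genes, and the Amotl2 and Lats2 proteins feed back to restrain YAP. Ptgs2 encodes COX-2, the inducible enzyme that starts prostaglandin synthesis and is known to respond to load and inflammation.

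Cells with at least 500 genes and at most 10% of UMIs (unique molecular identifiers, each 1 captured RNA molecule) from mitochondrial genes were kept, which left 4562 E16.5, 3999 P0 and 8028 13w cells. The mitochondrial limit alone removed 15.4%, 16.5% and 9.21% of barcodes in that order, and the kept cells held 100546288, 94002214 and 113130140 UMIs. Cells with at least 3 Col9a1 UMIs per 10000, called Col9a1-high, numbered 1014, 1746 and 1621, against 3548, 2253 and 6407 Col9a1-low cells. Col9a1 encodes a chain of type IX collagen of cartilage. Of 12 chondrocyte markers, 12, 12 and 10 were past 2-fold higher in Col9a1-high than in Col9a1-low cells in the same order of ages. Sox9 and Acan were the 2 exceptions at 13w. Col9a1 is itself among the 12 and sets the split, so its own place in each count was fixed in advance. Among all genes compared in the same way, 9.29%, 10.5% and 3.79% were higher. Col9a1-high cells were deeper, with medians of 40311.5, 36409.5 and 23612 UMIs, against 14937, 11771 and 9547 in Col9a1-low cells. The Col9a1-low cells also held the other cell types: blood markers summed to 9.01, 5.31 and 29.8 UMIs per 1000000 UMIs (CPM) in Col9a1-high cells, against 300, 67.7 and 342 CPM in Col9a1-low cells. Cartilage and bone markers of Col9a1-low cells differed between P0 and 13w. Col2a1 was at 290 and 3189 CPM, Ibsp at 139 and 5569 CPM and Col10a1 at 54.6 and 379 CPM, while Col9a1 itself was at 54.1 and 38.4 CPM. How far the mix of cells shapes ratios between ages was not tested. Libraries shared 10 to 15 barcode sequences per pair of ages.

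A gene was counted as measured where its higher summed level reached 10 CPM, and as higher or lower where the ratio of the summed levels passed 2-fold, a size rule and not a test. Of the 8 members measured between P0 and E16.5 over all kept cells, 3 were higher at P0 (Trpv4, Ptgs2 and Wwtr1) and 0 were lower, where 5.31% of 8261 genes were higher and 8.72% lower. Between 13w and P0, 1 of 8 members was higher at 13w (Ptgs2) and 0 were lower, beside 8.46% of 8098 genes higher and 7.93% lower. The median log2 ratio of the measured members was 0.85 between P0 and E16.5 and -0.06 between 13w and P0, against -0.13 and -0.13 over all genes measured. Piezo2 and Ankrd1 missed the minimum in both comparisons. Scaling by TMM factors (edgeR) raised log2 ratios of these comparisons by 0.18 and 0.16 and moved the share of past-2-fold genes that were higher to 57.8%, against 37.9% under scaling by all counts, for P0 against E16.5, and to 64.0%, against 51.6%, for 13w against P0.

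**Figure D1:**
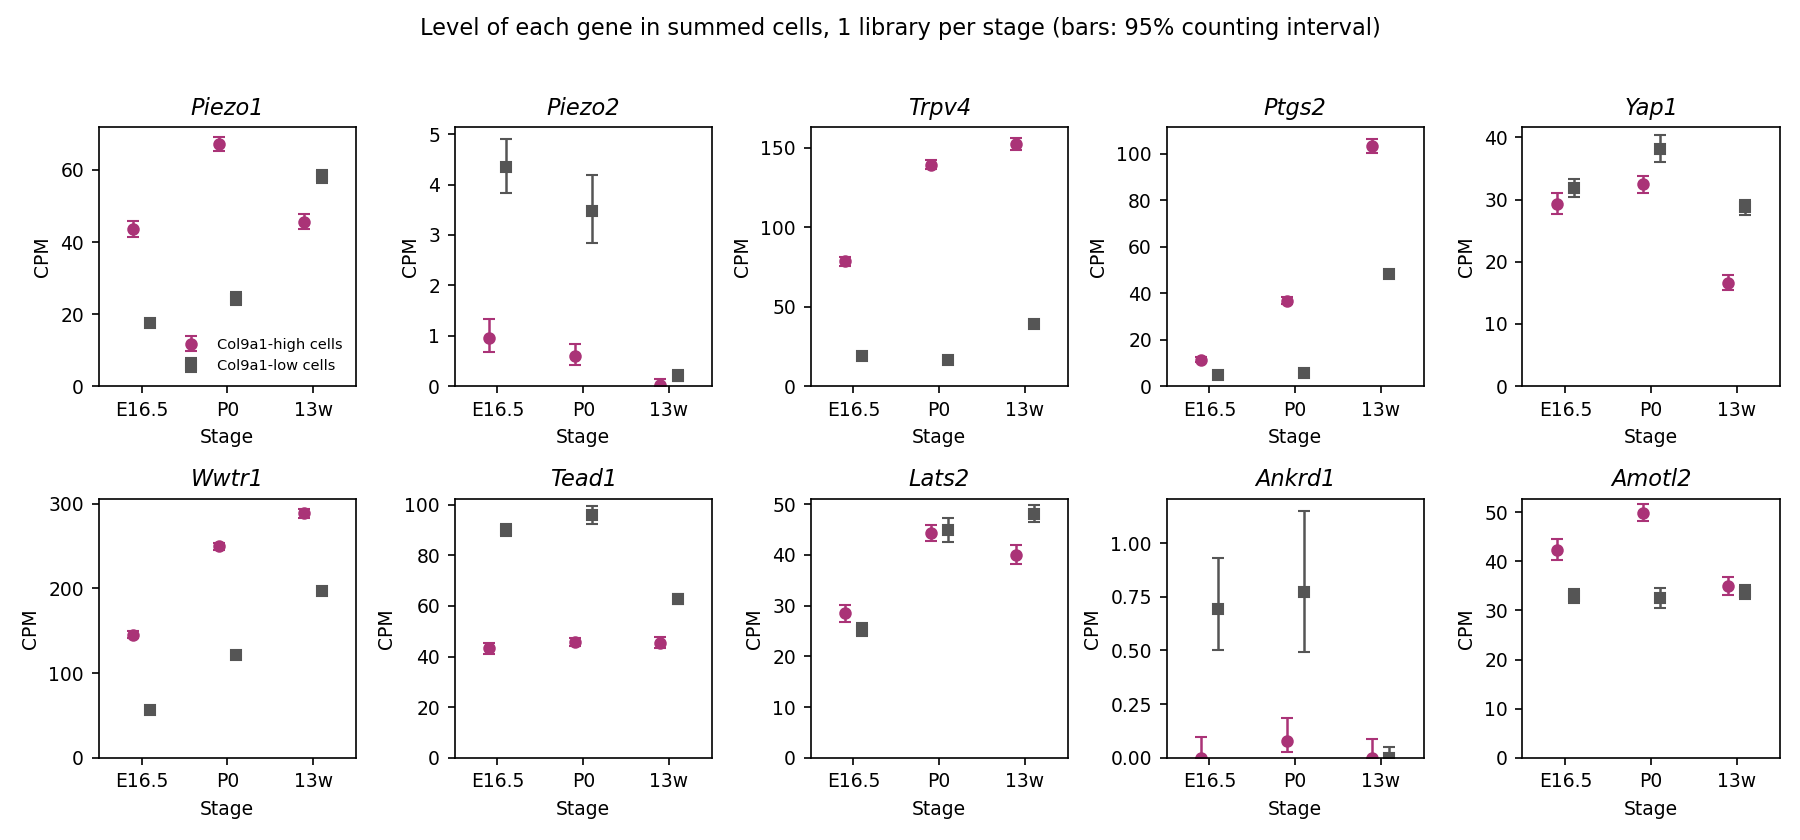
Level of each of the 10 genes (CPM, linear axis from 0, its range differing by gene) in Col9a1-high and Col9a1-low cells at E16.5, P0 and 13w, 1 library per age; bars on the points are exact 95% Poisson intervals. Trpv4 sits higher in Col9a1-high cells at every age (78.5, 139 and 152 CPM, against 19.2, 16.3 and 38.8 CPM in Col9a1-low cells), while Ankrd1 and Piezo2 lie near the floor.

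Between Col9a1-high and Col9a1-low cells, 4 of 8 measured members were higher in Col9a1-high cells at E16.5 and 4 of 8 at P0, the same 4 genes, Piezo1, Trpv4, Ptgs2 and Wwtr1. Wwtr1 was short of 2-fold at both ages with equal cell weights or with the gate at 1 Col9a1 UMI per 10000 (lowest log2 ratio 0.98 at E16.5 and 0.87 at P0). Tead1 was the 1 member lower at both ages. With the gate at 1, Piezo1, Ptgs2 and Tead1 were also short of 2-fold at E16.5, where Trpv4 alone passed, and Tead1 was short at P0. Ptgs2 at E16.5 was short as well with equal cell weights or without the 5% of cells with the most UMIs. At 13w 2 of 8 were higher, Trpv4 and Ptgs2, and 0 lower. The matching shares over all genes measured were 9.29% higher and 15.2% lower at E16.5, 10.5% and 14.4% at P0, and 3.79% and 11% at 13w. The members' median log2 ratio was 0.83, 0.83 and -0.11 at E16.5, P0 and 13w, against -0.18, -0.10 and -0.31 over all genes; the members' 13w value was 0.27 under TMM. That scaling raised these log2 ratios by 0.32, 0.27 and 0.38, and the share of past-2-fold genes that were higher became 57.4%, 58.3% and 49.7%, against 37.9%, 42.3% and 25.7% under scaling by all counts.

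**Figure D2:**
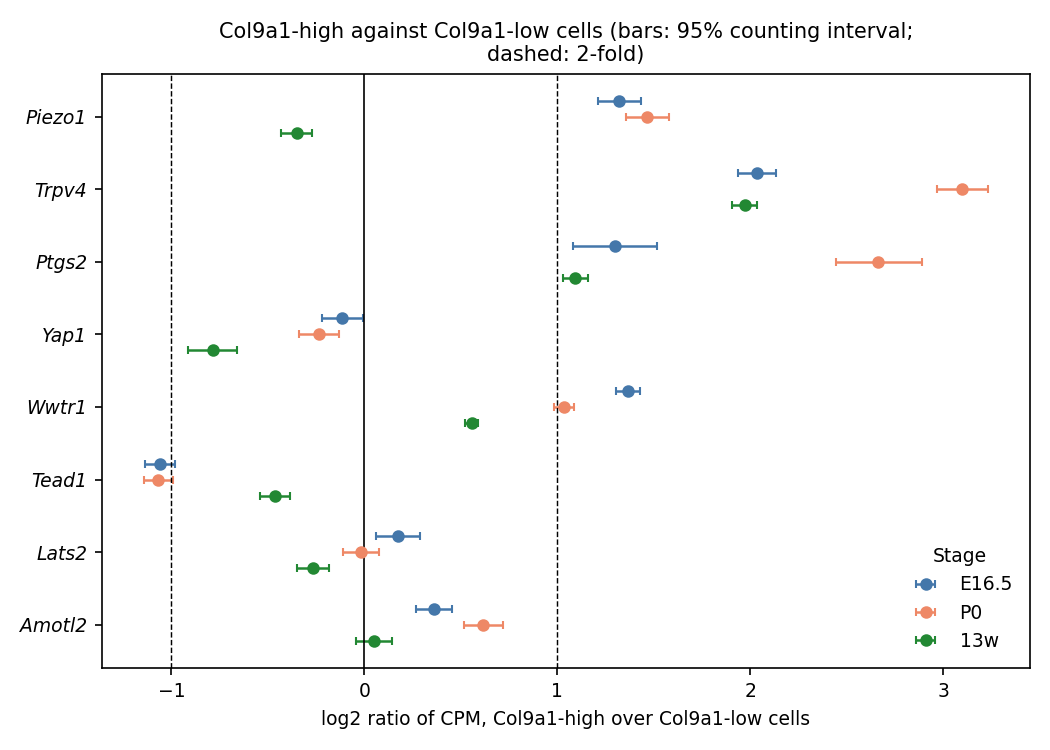
log2 ratio of Col9a1-high over Col9a1-low cells for the 8 measured members at each age, with exact 95% counting intervals and the 2-fold limits marked. Trpv4 lies past 2-fold at all 3 ages (2.04, 3.10 and 1.97), Tead1 lies below 0 at all 3 (-1.06, -1.07 and -0.46), and Piezo1 changes side at 13w (1.32, 1.47 and -0.35).

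Trpv4 (ENSMUSG00000014158) was the one of the 3 channel genes past 2-fold higher in Col9a1-high cells at every age. It was counted at 78.5 CPM (95% counting interval 75.7 to 81.4) at E16.5, 139 CPM (136 to 142) at P0 and 152 CPM (148 to 156) at 13w in Col9a1-high cells, against 19.2 (18.1 to 20.3), 16.3 (14.9 to 17.8) and 38.8 (37.4 to 40.3) CPM in Col9a1-low cells. The ratio was thus 4.10-fold, 8.56-fold and 3.92-fold, and no interval of one set reached into the other. Among cells thinned to 3000 UMIs each, 18.9%, 30.4% and 34.7% of Col9a1-high cells held a Trpv4 UMI, against 4.26%, 3.27% and 7.00% of Col9a1-low cells; without thinning the shares were 83.2%, 89.7% and 86.0%, against 21.3%, 14.6% and 20.2%. Cells gated as blood, taken as the comparison for free RNA although some blood cells may express Trpv4, had medians of 10183, 9574 and 8236 UMIs and showed 2.04%, 0% and 3.63% after thinning, with exact binomial 95% intervals up to 5.85%, 19.5% and 6.13%. The Col9a1-low shares at E16.5 and P0 lay within those intervals and the one at 13w just above. At 13w the blood cells' Trpv4 level was 10.2% of that in Col9a1-high cells outside the gates of other cell types, Prg4, Bglap and Col10a1. The same share was 9.55% for Col9a1, 10.6% for Col2a1 and 15.6% for Acan. Of the 408 blood cells at 13w 28 were themselves Col9a1-high, so their cartilage RNA need not all be free RNA. Over all kept cells Trpv4 was 2.36-fold higher at P0 than at E16.5, past 2-fold, but within Col9a1-high cells the log2 ratio was 0.83 and within Col9a1-low cells -0.23, neither past 2-fold, and Col9a1-high cells held 66.9% of UMIs at P0 and 38.2% at E16.5. Its log2 ratio between 13w and P0 was -0.30. At 13w Trpv4 was at 165 CPM in other Col9a1-high cells, 119 CPM in Bglap-high cells, 39.7 CPM in cells that met no gate and 8.2 CPM in Prg4-high cells. Among Col9a1-low cells it was past 2-fold higher at 13w than at P0 (log2 ratio 1.25, 1.12 to 1.39), and this was 0.81 when the gate stood at 10 Col9a1 UMIs per 10000.

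Trpv4 was also higher the more Col9a1 a cell held. From cells without a Col9a1 UMI to cells with at least 30 per 10000, its level in the lowest and the highest of 6 Col9a1 bins was 12.5 and 103 CPM at E16.5, 9.9 and 179 CPM at P0, and 23.3 and 200.4 CPM at 13w, and each bin in between lay above the one before it. The top bin held as few as 39 cells.

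**Figure D3:**
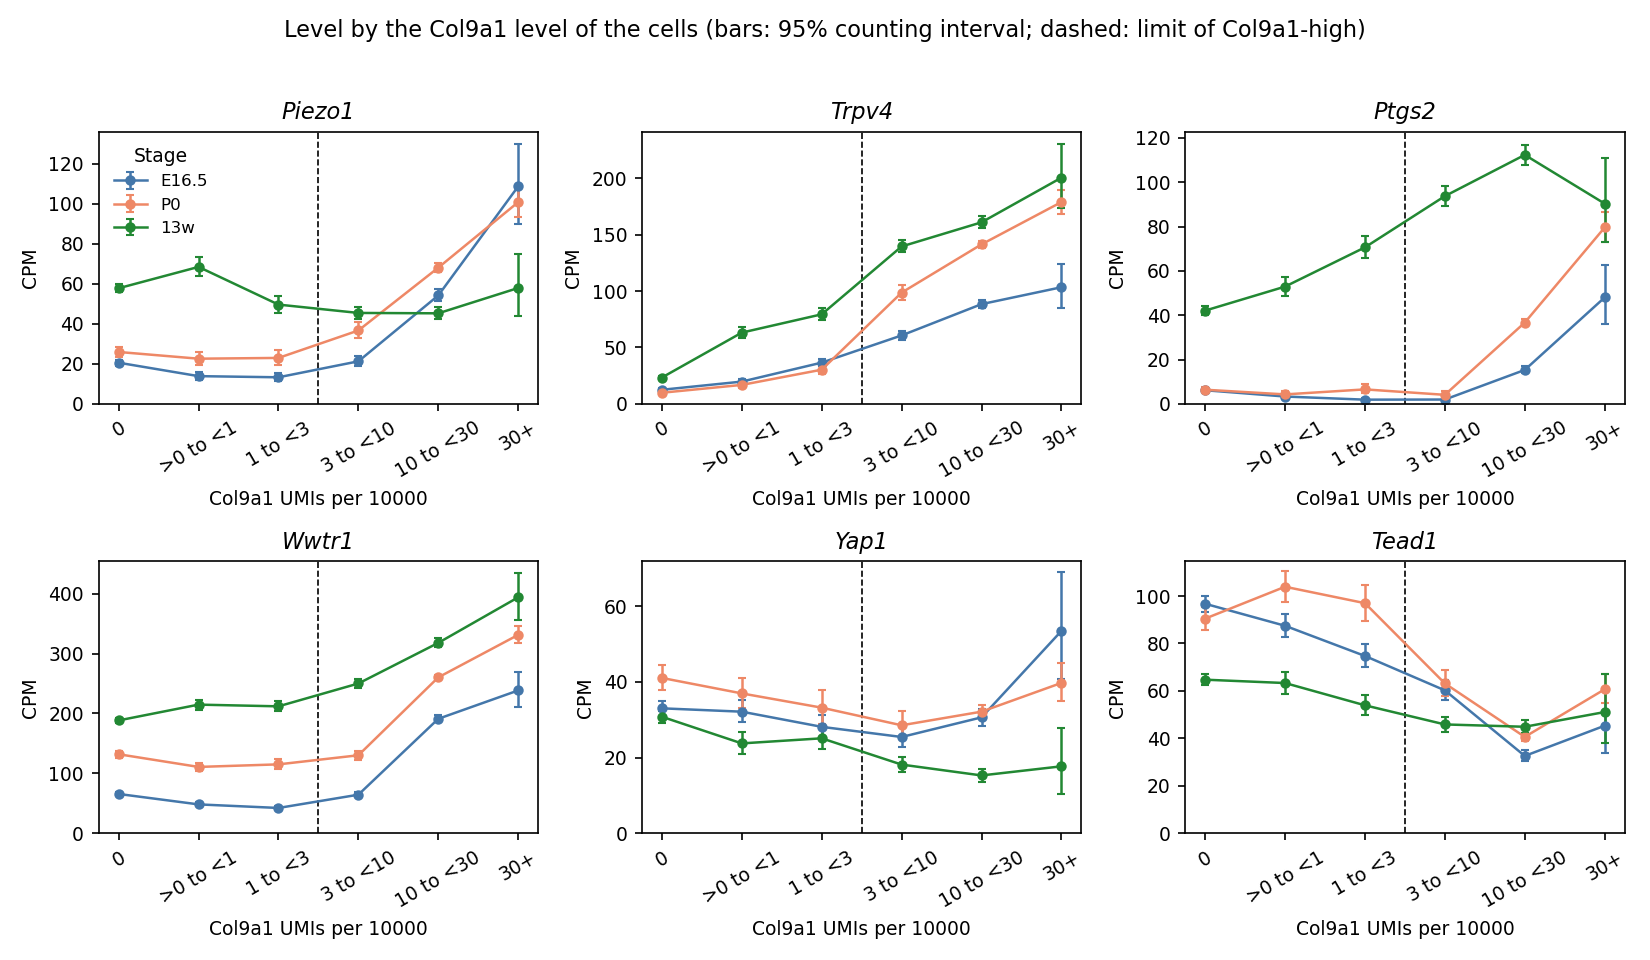
Level (CPM) of members in 6 bins of cells by Col9a1 UMIs per 10000, from 0 to 30 and more, 1 line per age, bars being exact 95% Poisson intervals. Trpv4 goes up over the bins at every age, Tead1 is lower in the bin of 10 to under 30 than in the bin at 0 (32.6 and 96.7 CPM at E16.5), and Piezo1 goes up over the upper bins at E16.5 and P0 but stays between 45.3 and 68.5 CPM at 13w.

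Piezo1 (ENSMUSG00000014444) was higher in Col9a1-high cells before birth and at birth but not in adults. Its level was 43.6 CPM (41.5 to 45.7) at E16.5, 67.2 (65.2 to 69.3) at P0 and 45.7 (43.7 to 47.8) at 13w in Col9a1-high cells, against 17.5 (16.4 to 18.5), 24.3 (22.6 to 26.1) and 58.3 (56.5 to 60.1) CPM in Col9a1-low cells. Within Col9a1-low cells Piezo1 was past 2-fold higher at 13w than at P0 (log2 ratio 1.26, 1.15 to 1.37, and 0.95 with cells thinned), while in Col9a1-high cells the ratio was -0.56. Cartilage and bone markers of the Col9a1-low cells also differed between these ages, and the part of the cell mix in the Piezo1 ratio was not tested. Thinned cells showed the same order, with a Piezo1 UMI in 11.5%, 18.5% and 11.6% of Col9a1-high cells, against 5.29%, 6.81% and 14.1% of Col9a1-low cells; the unthinned shares were 64.7%, 78.4% and 57.2%, against 23.2%, 25.2% and 37.6%. Blood cells had a thinned share of 7.48%, 11.8% and 5.59% and a level of 36.3, 63.7 and 25.6 CPM, the P0 value resting on 19 cells, so Piezo1 was not missing from blood cells. The log2 ratio of Col9a1-high over Col9a1-low cells at 13w, -0.35, was 0.03 under TMM scaling, so its side of 0 depends on the scaling. Over all kept cells the ratio between P0 and E16.5 was 0.95 on the log2 scale and passed 2-fold with TMM (1.13).

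Marker gates placed the Piezo1 signal in several kinds of cells. Each cell was put into the first gate it met, by markers of other cell types and then by Prg4 (lubricin of the joint surface), Bglap (osteocalcin of osteoblasts), Col10a1 (the collagen of hypertrophic chondrocytes), Col9a1 and cycling genes. Piezo1 stood at 72.3, 92.3 and 44.2 CPM in Col10a1-high cells at E16.5, P0 and 13w, against 32.0, 54.6 and 47.5 CPM in the other Col9a1-high cells. Endothelial cells had 72.9, 73.7 and 81.8 CPM. In cells that met no gate Piezo1 was at 17.0, 22.6 and 61.7 CPM, and in cycling cells at 15.6, 23.9 and 67.2 CPM, so the higher level of Col9a1-low cells at 13w was seen in both.

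Piezo2 (ENSMUSG00000041482), best known from sensory neurons and Merkel cells, was rare. All kept cells held 307 E16.5, 146 P0 and 15 13w UMIs of it, which is 3.05, 1.55 and 0.13 CPM. The 13w level was 11.7-fold lower than the P0 level on these few counts, with a ratio of 0.0466 to 0.145 by counting error, and both lay under the 10 CPM minimum. The endothelial gate held 55, 38 and 26 cells. It carried 99 of 307 Piezo2 UMIs (32.2%) at E16.5, 28 of 146 (19.2%) at P0 and 10 of 15 (66.7%) at 13w. The level there was 139 CPM (113 to 169), 40.5 (26.9 to 58.5) and 58.5 (28.0 to 108). At E16.5 cells that met no gate held 74 Piezo2 UMIs (24.1%) and cycling cells 67 (21.8%). A gate of mural cells (pericytes and smooth muscle of vessels) was rebuilt without Ndufa4l2 after the data were seen, since 40.2%, 41.5% and 26.9% of the first one's cells were Col9a1-high. The rebuilt gate of 23, 56 and 12 cells held 17, 50 and 1 Piezo2 UMIs, at P0 34.2% of all and more than the endothelial gate held. Cells gated as Col9a1-high held 37, 38 and 1 UMIs in all.

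**Figure D4:**
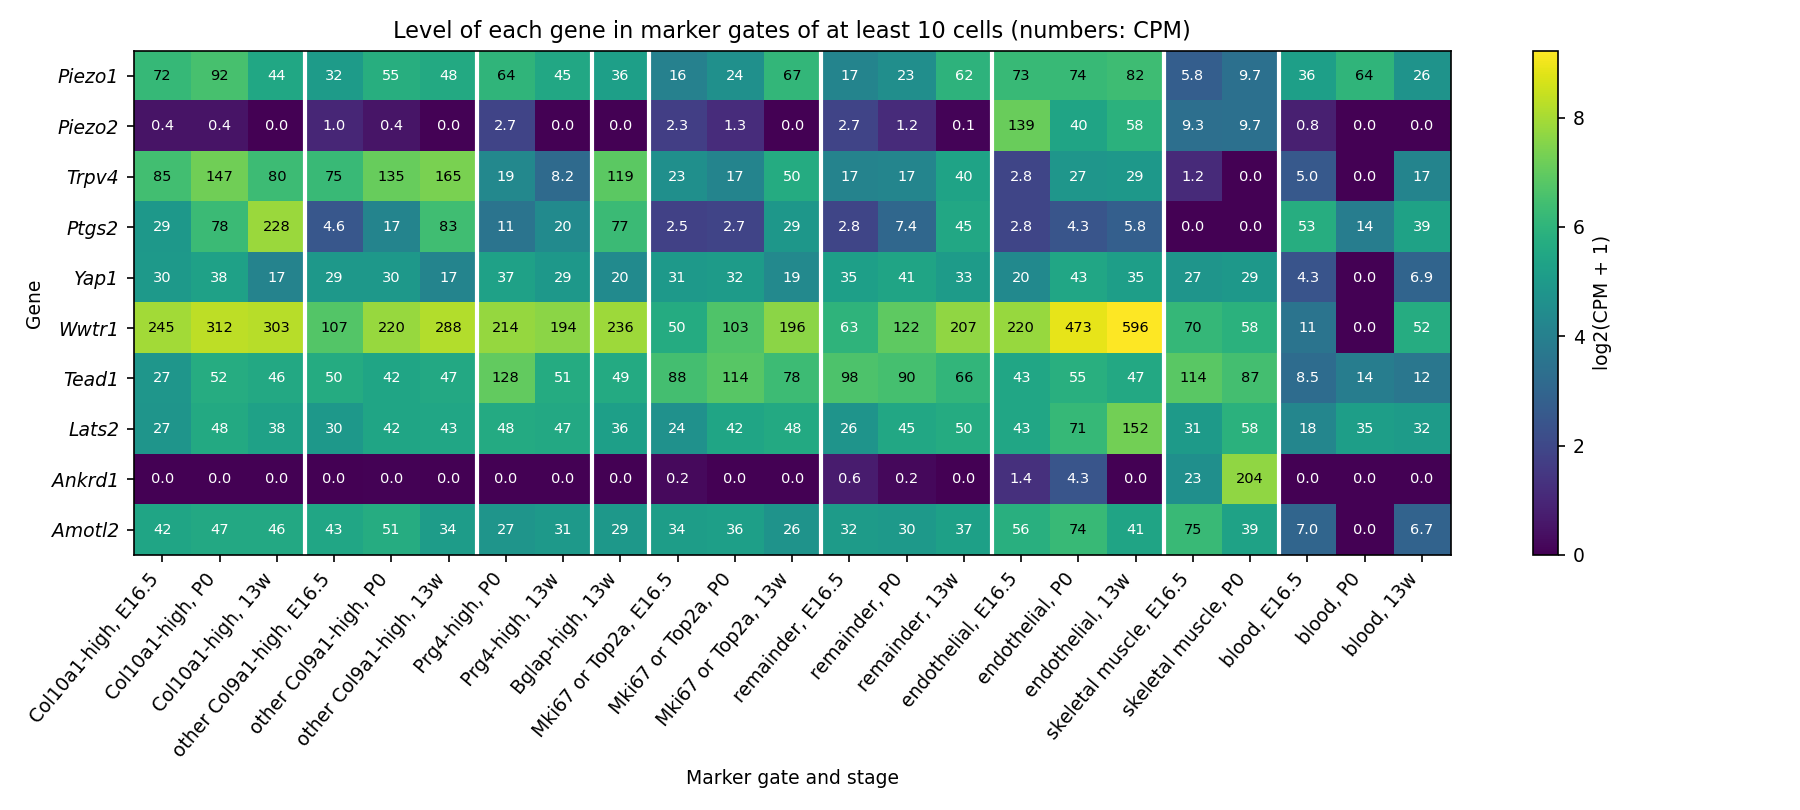
Level (CPM) of the members in marker gates of at least 10 cells at E16.5, P0 and 13w, coloured by log2(CPM + 1). Columns are gates and ages, and the mural gates, which also held Piezo2, are not shown. Among the gates shown, Piezo2 stands out in the endothelial gate (139, 40.5 and 58.5 CPM). Ankrd1 does so in the muscle gate (23.3 CPM at E16.5 and 204 CPM at P0) and Ptgs2 in the Col10a1-high gate at 13w (228 CPM).

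Ptgs2 (ENSMUSG00000032487) had the widest difference between ages of the 8 measured members. Col9a1-high cells had 11.3 CPM (10.3 to 12.4) at E16.5, 36.7 (35.2 to 38.2) at P0 and 103 (100 to 106) at 13w, against 4.60 (4.09 to 5.17), 5.79 (4.98 to 6.70) and 48.4 (46.8 to 50.1) CPM in Col9a1-low cells. In Col9a1-high cells each age lay above the one before it. In Col9a1-low cells the P0 level was 1.26-fold the E16.5 level (1.04 to 1.52), both under 10 CPM. The 13w level there was 8.36-fold the P0 level. Over all kept cells the 13w level was 2.59-fold the P0 level and the P0 level 3.69-fold the E16.5 level. Col9a1-high cells were 6.33-fold above Col9a1-low cells at P0, while at E16.5 and 13w the log2 ratios were 1.30 (1.08 to 1.52) and 1.09 (1.03 to 1.16), each of which missed 2-fold in some alternatives.

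The Ptgs2 signal was uneven from cell to cell. The 1% of kept cells with the most Ptgs2 UMIs held 60.5%, 56.0% and 31.6% of them at the 3 ages, and single cells held up to 34, 156 and 78. After thinning, 2.42%, 5.86% and 15.5% of Col9a1-high cells held a UMI, against 1.03%, 2.04% and 7.13% of Col9a1-low cells, and without thinning 11.7%, 16.2% and 37.0%, against 3.97%, 5.37% and 16.4%. Col10a1-high cells carried 40.6%, 61.0% and 24.8% of its UMIs, at 29.3 CPM (26.0 to 32.8), 77.9 (74.0 to 81.9) and 228 (218 to 239), against 4.64, 17.1 and 83.3 CPM in the other Col9a1-high cells. Along the bins of Col9a1 at or above the gate (3, 10 and 30 UMIs per 10000 and more), Ptgs2 was at 2.0, 15.3 and 48.0 CPM at E16.5 and at 4.1, 36.7 and 79.6 CPM in P0 cells, so the cells just past the gate lacked the higher level. In 13w cells the same bins had 93.8, 112 and 90.4 CPM. Blood cells also carried it, at 52.9 CPM (44.4 to 62.6) at E16.5, where they held 137 of 721 UMIs, at 14.2 CPM at P0 and at 39.0 CPM at 13w. Without the 6 gates of blood, endothelial, mural, muscle, neural or glial, and epithelial cells the log2 ratio of Col9a1-high over Col9a1-low cells at E16.5 was 2.14 and that of P0 over E16.5 was 2.15, against 1.30 and 1.88 with them.

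Immediate early genes, which are known to respond within minutes to many stimuli and to tissue digestion, were added as a list after the data were seen. Of 10 such genes 6 were past 2-fold higher at 13w than at P0 over all kept cells, with a median log2 ratio of 1.07 against -0.13 over all genes, where 8.46% of all genes were higher, among them Dusp1 (224 CPM at 13w, 81.3 CPM at P0), Egr1 (841 CPM at 13w, 361 CPM at P0) and Atf3 (log2 ratio 1.36). Their count was 4 in Col9a1-high and 4 in Col9a1-low cells for 13w against P0, beside 6.97% and 9.74% of all genes, and 0 for P0 against E16.5 over all kept cells. Ptgs2 is itself widely counted among induced genes, and the part of this difference in the Ptgs2 level at 13w was not tested.

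Wwtr1 (ENSMUSG00000027803), the TAZ gene, had higher levels at later ages in both kinds of cells, while Yap1 (ENSMUSG00000053110) did not. Wwtr1 stood at 145 CPM (142 to 149) at E16.5, 249.8 (246 to 254) at P0 and 289 (283 to 294) at 13w in Col9a1-high cells, against 56.5 (54.6 to 58.4), 122 (118 to 126) and 196 (193 to 200) CPM in Col9a1-low cells. Yap1 stood at 29.4 CPM (27.7 to 31.1), 32.4 (31.0 to 33.9) and 16.6 (15.4 to 17.9) in Col9a1-high cells, against 31.8 (30.4 to 33.2), 38.2 (36.0 to 40.4) and 28.7 (27.5 to 29.99) CPM in Col9a1-low cells. Wwtr1 was 2.29-fold higher at P0 than at E16.5 over all kept cells and 2.16-fold higher in Col9a1-low cells, where equal cell weights or thinning took it under 2-fold (lowest log2 ratio 0.94), and 1.72-fold higher in Col9a1-high cells. For Yap1 in Col9a1-high cells the log2 ratio of 13w over P0 was -0.96 (-1.09 to -0.84), just short of 2-fold lower; it was -1.10 with cells thinned.

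The share of Wwtr1 among Wwtr1 and Yap1 UMIs together compares ages and cells, not the 2 genes, whose capture may differ. In Col9a1-high cells the share was 83.2% (exact binomial 95% interval 82.3 to 84.1) at E16.5, 88.5% (88.0 to 89.0) at P0 and 94.5% (94.1 to 94.9) at 13w, and in Col9a1-low cells it was 64.0%, 76.2% and 87.2%. By gate, Wwtr1 was highest in endothelial cells, at 220, 473 and 596 CPM, except at E16.5, where Col10a1-high cells had 245 CPM. At E16.5 and P0 cells that met no gate had less Wwtr1 (62.9 and 122 CPM) than Col10a1-high cells (245 and 312 CPM). Blood cells had a Wwtr1 level of 10.8, 0 and 51.6 CPM, and after thinning 1.36%, 0% and 8.94% of them held a UMI, against 30.8%, 50.6% and 52.9% of Col9a1-high and 17.8%, 30.1% and 41.1% of Col9a1-low cells. The thinned Yap1 shares were 8.38%, 8.20% and 4.73% of Col9a1-high cells and 9.91%, 10.98% and 9.16% of Col9a1-low cells.

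Tead1 (ENSMUSG00000055320), the DNA-binding partner, ran the other way across the Col9a1 gate. It had 43.2 CPM (41.1 to 45.3), 45.7 (44.1 to 47.4) and 45.5 (43.4 to 47.6) in Col9a1-high cells, against 90.0 (87.7 to 92.4), 95.9 (92.5 to 99.4) and 62.8 (60.9 to 64.6) CPM in Col9a1-low cells. The Col9a1-high levels of the 3 ages had overlapping counting intervals, while the Col9a1-low level was lowest at 13w. Tead1 was past 2-fold lower in Col9a1-high cells at E16.5 and P0 under scaling by all counts, but the log2 ratios of -1.06 (-1.14 to -0.98) and -1.07 (-1.14 to -0.99) sat close to the limit and were short of it under TMM. Cycling cells (88.5, 114 and 78.2 CPM) and cells that met no gate (98.1, 90.4 and 65.7) held more Tead1 than other Col9a1-high cells (50.2, 42.4 and 46.6 CPM). Muscle cells also held more at E16.5 (114 CPM). Their 87.4 CPM at P0 rested on only 9 Tead1 UMIs in 11 cells.

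Lats2 (ENSMUSG00000021959), the kinase, differed little across the Col9a1 gate. Its level was 28.5, 44.3 and 40.0 CPM in Col9a1-high cells, against 25.2, 44.9 and 48.1 CPM in Col9a1-low cells, with log2 ratios of 0.17, -0.02 and -0.27, the negative ones turning positive under TMM. E16.5 was the low age, with a log2 ratio of P0 over E16.5 of 0.75 over all kept cells, under 2-fold. Endothelial cells had 43.4, 70.8 and 152 CPM.

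Amotl2 (ENSMUSG00000032531), a motin scaffold that binds YAP and is also one of its targets, had 42.3, 49.9 and 34.9 CPM in Col9a1-high cells, against 33.0, 32.5 and 33.7 CPM in Col9a1-low cells. The widest gap was at P0, a log2 ratio of 0.62, under 2-fold. Ankrd1 (ENSMUSG00000024803), a cardiac and skeletal muscle ankyrin repeat protein, was rare, and many of its UMIs lay in muscle cells. All kept cells held 43 UMIs in 23 cells at E16.5, 29 in 11 cells at P0 and 0 at 13w, where the limit a count of 0 allows is 0.0265 CPM. Of these, 20 of 43 UMIs (46.5%) lay in 57 muscle cells at E16.5 and 21 of 29 (72.4%) in 11 muscle cells at P0, and no cell met the muscle gate at 13w. Col9a1-high cells held 0, 5 and 0 Ankrd1 UMIs.

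TEAD factors bind the motif GGAATG, and the promoters of the members hold it unevenly. Of the 10 members 8 had an entry, 10 entries in all, in the RefSeq promoter table (GRCm38.p6, which is not the build of the counts), and the 250 bases before each start were searched. GGAATG on either strand was found in Ankrd1, Amotl2, Yap1 and both Wwtr1 entries, and 12.6% of 32851 promoters of the same length held it. Piezo1, Trpv4, Ptgs2 and Lats2 had no match, and there was no match in any member to TGANTCA (AP-1, in 6.75% of promoters) or TGACGTNA (CRE, in 2.52%). The 4 promoters with a match, taking the first Wwtr1 entry, are shown 5′ to 3′ on the gene's strand up to the base before the start, the motif in capitals, since they put the letters beside the 2 target genes and the 2 coactivator genes.
Ankrd1 (chr19:36119845-36120094, minus strand): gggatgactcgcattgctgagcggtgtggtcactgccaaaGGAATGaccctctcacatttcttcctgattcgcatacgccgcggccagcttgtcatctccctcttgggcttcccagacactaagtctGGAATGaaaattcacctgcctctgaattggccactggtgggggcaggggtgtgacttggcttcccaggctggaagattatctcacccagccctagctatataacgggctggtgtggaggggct
Amotl2 (chr9:102717554-102717803, plus strand): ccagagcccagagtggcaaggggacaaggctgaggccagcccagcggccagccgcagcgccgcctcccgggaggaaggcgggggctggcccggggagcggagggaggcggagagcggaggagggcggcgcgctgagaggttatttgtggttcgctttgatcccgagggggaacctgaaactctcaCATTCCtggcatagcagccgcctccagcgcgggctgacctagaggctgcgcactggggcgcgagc
Yap1 (chr9:8004597-8004846, minus strand): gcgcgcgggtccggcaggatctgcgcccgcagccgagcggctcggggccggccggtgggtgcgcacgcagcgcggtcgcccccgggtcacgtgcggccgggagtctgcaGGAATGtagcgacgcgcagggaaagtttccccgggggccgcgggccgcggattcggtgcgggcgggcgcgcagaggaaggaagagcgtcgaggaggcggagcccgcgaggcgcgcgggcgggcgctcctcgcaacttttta
Wwtr1 (chr3:57575911-57576160, minus strand): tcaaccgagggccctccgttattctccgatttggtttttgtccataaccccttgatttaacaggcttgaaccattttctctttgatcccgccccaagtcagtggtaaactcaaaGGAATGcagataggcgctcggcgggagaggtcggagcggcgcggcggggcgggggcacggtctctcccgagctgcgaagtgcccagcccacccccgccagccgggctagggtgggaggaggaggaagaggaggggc
Ankrd1 has 2 matches, 210 and 123 bases before the start. Amotl2 has 1 match on the other strand, printed as its reverse complement, 65 bases before the start, Yap1 1 at 141 and Wwtr1 1 at 136. A match describes the letters only.

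Col10a1-high cells, of which 98.7%, 98.4% and 66.8% were also Col9a1-high at E16.5, P0 and 13w, were set against the other Col9a1-high cells, a comparison added after the first results were seen. Among 8 measured members, Piezo1 (2.26-fold), Ptgs2 (6.30-fold) and Wwtr1 (2.30-fold) were higher in Col10a1-high cells at E16.5, and Ptgs2 was the 1 higher member at P0 (4.56-fold) and at 13w (2.74-fold). Over all genes measured 7.05%, 4.44% and 2.22% were higher at E16.5, P0 and 13w and 14%, 4.86% and 4% lower. Trpv4 was the 1 lower member, at 13w, with 79.6 CPM in Col10a1-high and 165 CPM in other Col9a1-high cells (log2 ratio -1.05, -1.17 to -0.94), and this was short of 2-fold under TMM, which raised log2 ratios there by 0.16. At E16.5 and P0 Trpv4 stood at 85.5 and 147 CPM in Col10a1-high cells, against 75.3 and 135 CPM in other Col9a1-high cells. Under TMM the share of past-2-fold genes that were higher at 13w was 50.6%, against 35.7% with all counts.

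Comparing ages within Col9a1-high and within Col9a1-low cells, few members passed 2-fold. In Col9a1-high cells Ptgs2 was the 1 of 8 higher at P0 than at E16.5 (log2 ratio 1.70, 1.55 to 1.85) and the 1 of 8 higher at 13w than at P0 (1.49, 1.42 to 1.57), where 4.79% and 6.97% of all genes were higher and 5.08% and 12% lower. In Col9a1-low cells Wwtr1 was the 1 of 7 higher at P0, where 5.44% of all genes were higher and 7.27% lower. In the same cells Piezo1, Trpv4 and Ptgs2 were 3 of 8 higher at 13w, beside 9.74% higher and 7.75% lower. The members' median log2 ratios were 0.63 and -0.08 in Col9a1-high cells and 0.26 and 0.40 in Col9a1-low cells, against -0.08, -0.30, -0.15 and -0.05 over all genes. With TMM the share of past-2-fold genes that were higher was 59.5%, against 36.7%, for 13w over P0 in Col9a1-high cells, and in Col9a1-low cells 59.7%, against 42.8%, for P0 over E16.5 and 67.0%, against 55.7%, for 13w over P0.

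The members were then set beside wider lists of the same pathways. Of 22 force-gated and volume-sensing channel genes, 10 were measured between Col9a1-high and Col9a1-low cells at E16.5 and 4 were higher, Panx3 (log2 ratio 2.68), Trpv4, Piezo1 and Tmem63b (1.11). Over all genes 9.29%, 10.5% and 3.79% were higher at E16.5, P0 and 13w and 15.2%, 14.4% and 11% lower. At P0 the same 4 of 10 were higher, with Panx3 at 2.81 and Tmem63b at 1.40, and Gja1, a connexin gene, was lower (-1.08). At 13w 2 of 12 were higher, Panx3 (3.18) and Trpv4, and 3 were lower, Ano1 (-2.57), Pkd1 (-1.05) and Trpc1 (-1.02), of which 1 of 3 was lower under TMM and Gja1 at P0 was not. The list's median log2 ratios were 0.17, 0.01 and -0.54, against the -0.18, -0.10 and -0.31 of all genes. Panx3 encodes a pannexin of maturing cartilage and bone and, like Trpv4, was past 2-fold higher at all 3 ages.

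Of 14 prostaglandin genes, Ptgs2 was joined in Col9a1-high cells by Hpgd, which breaks prostaglandins down, at log2 ratios of 3.44, 3.98 and 1.86 at E16.5, P0 and 13w, and by Ptgis, the prostacyclin synthase, at 2.11 at E16.5 and 2.20 at P0. Counts past 2-fold higher were 3 of 6, 3 of 4 and 2 of 8 measured genes, with list medians of 0.51, 2.43 and 0.17, beside 9.29%, 10.5% and 3.79% of all genes higher and medians of -0.18, -0.10 and -0.31. Ptges, the inducible prostaglandin E synthase, was lower at 13w (-1.12), though not under TMM. Over all kept cells 3 of 8 were higher at 13w than at P0, Ptges (20.8 CPM at 13w and 3.5 CPM at P0, log2 ratio 2.57), Pla2g4a (1.41), which frees arachidonic acid, and Ptgs2. Hpgd was lower, with 37.5 CPM at 13w and 245 CPM at P0 (-2.71). For 13w against P0, 8.46% of all genes were higher and 7.93% lower. The prostaglandin list's median log2 ratio there was 0.69, against -0.13 over all genes.

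The wider list of 22 YAP and TAZ target genes, most of them taken from cancer cells and fibroblasts, did not run one way. Between Col9a1-high and Col9a1-low cells 4 of 17 were higher and 5 lower at E16.5, 4 of 17 and 5 at P0, and 3 of 18 and 5 at 13w, with median log2 ratios of 0.17, -0.13 and -0.23. Over all genes 9.29%, 10.5% and 3.79% were higher and 15.2%, 14.4% and 11% lower, with medians of -0.18, -0.10 and -0.31. Under TMM the target list's medians were 0.49, 0.15 and 0.14, with 6, 4 and 4 of its genes higher and 4, 3 and 3 lower. The side of 0 of its medians at P0 and 13w thus depends on the scaling. TMM raised the log2 ratios of all genes alike, by 0.32, 0.27 and 0.38. Higher ones included Ccn2 (CTGF; 4.22, 1.89 and 1.56), the matrix gene Ccdc80 (3.36, 3.04 and 2.66) and Nt5e (2.46 at E16.5 and 2.45 at P0). Lower at all 3 ages were Igfbp3 (-4.83, -4.69 and -3.19), the receptor kinase Axl (-3.40, -3.13 and -2.22) and Rbms3 (-2.99, -2.70 and -2.06). Between 13w and P0 in Col9a1-high cells, 5 of 15 were higher and 1 was lower, beside 6.97% and 12% of all genes. The target list's median there was -0.20, against -0.30 over all genes. The higher ones were led by F3, the tissue factor gene (135 CPM at 13w and 6.9 CPM at P0, log2 ratio 4.29), Ccdc80 (2.06) and Gadd45a (1.55). Crim1 was lower (-1.83).

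**Figure D5:**
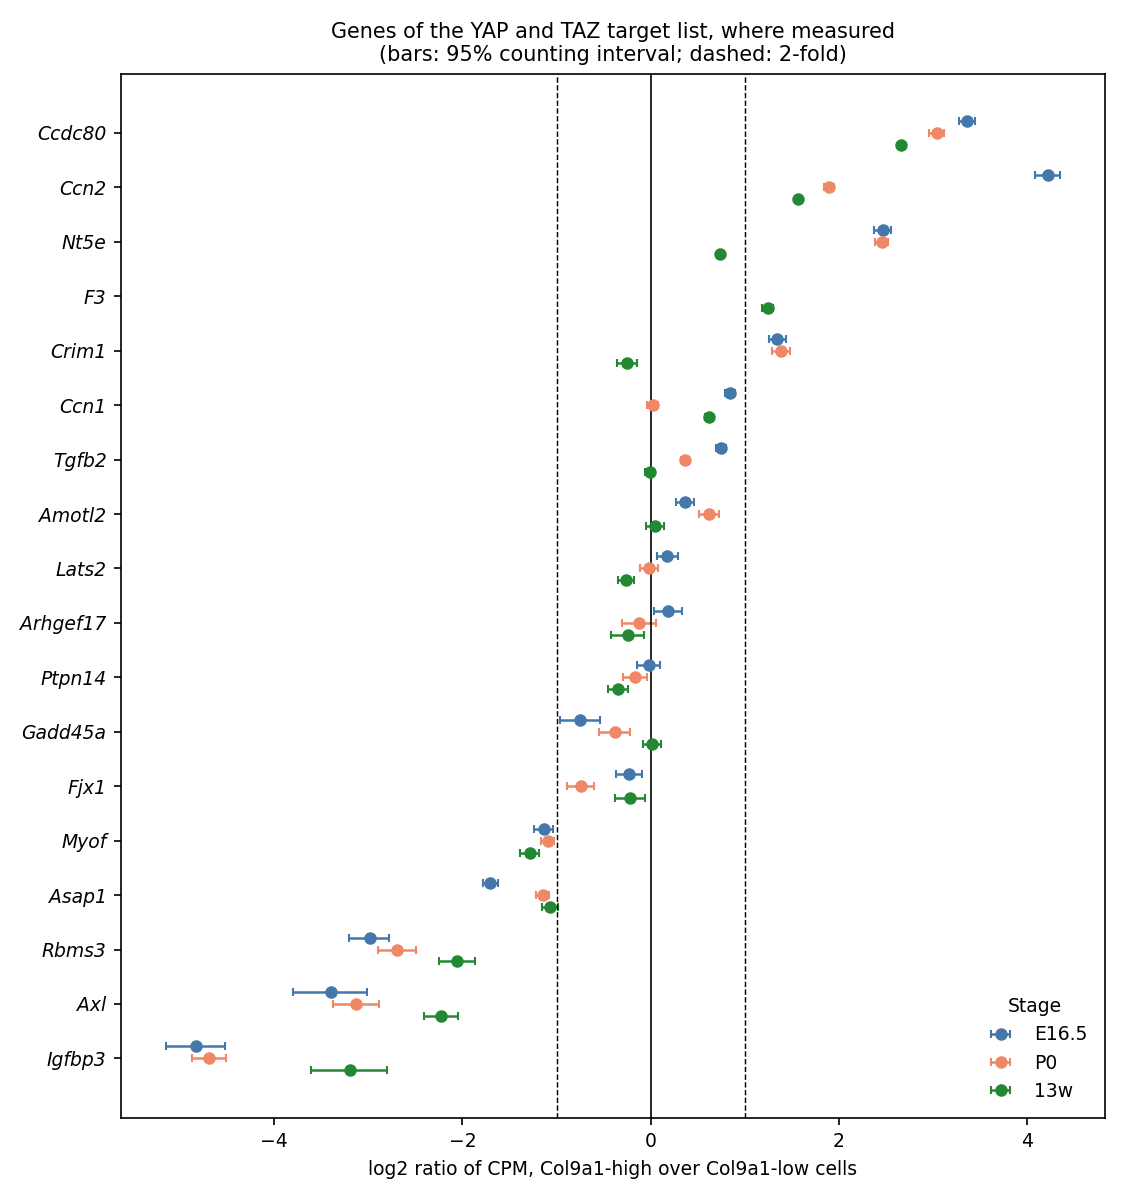
log2 ratio of Col9a1-high over Col9a1-low cells for the measured genes of the YAP and TAZ target list at E16.5, P0 and 13w, with the 2-fold limits marked. Ccn2 and Ccdc80 lie past 2-fold higher and Igfbp3, Axl and Rbms3 past 2-fold lower at all 3 ages.

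The Hippo list holds 21 kinases, adaptors and regulators. Over all kept cells 1 of 19 was higher at P0 than at E16.5, Frmd6 (1.21), a share near the 5.31% of all genes, and 0 of 18 passed 2-fold at 13w against P0, beside 8.46% of all genes higher and 7.93% lower. Across the Col9a1 gate none of the Hippo genes was higher. Lower in Col9a1-high cells were 1 of 19 at E16.5, 2 of 19 at P0 and 0 of 18 at 13w, no more than the 15.2%, 14.4% and 11% of all genes. These were Amot, the angiomotin gene (-1.55 at E16.5 and -2.10 at P0), and Sav1 (-1.10 at P0). The Hippo list's medians were -0.23, -0.09 and -0.41, against -0.18, -0.10 and -0.31 over all genes. Under TMM they were 0.08, 0.19 and -0.04, and Sav1 was not past 2-fold. Among the 9 transcription factor genes, 2 of 5 measured were lower at E16.5, 3 of 6 at P0 and 0 of 4 at 13w. These were Tead2 (-2.31 at E16.5 and -2.07 at P0), Tead3 at P0 (-1.61) and Tead1, which was short of 2-fold under TMM. Wwtr1 was the 1 higher gene at E16.5 and at P0. That list's medians were -0.38, -0.68 and -0.27. Of 14 SRF and MRTF genes of the actin cytoskeleton none was higher in Col9a1-high cells, and 2 of 11, 8 of 12 and 5 of 11 were lower at E16.5, P0 and 13w (2, 7 and 4 under TMM; medians -0.66, -1.38 and -0.99), beside 15.2%, 14.4% and 11% of all genes lower, among them Acta2 at P0 (-2.21) and Myl9 at 13w (-2.67).

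Genes whose levels ran most like each member's were sought over 21 sums of at least 50 cells, each 1 gate at 1 age, which share 3 libraries, so the correlations (Pearson's r of log2(CPM + 1), 11424 genes) are descriptions. Trpv4 ran most like Gramd2 (0.97) and the cartilage genes Col27a1 (0.95) and Wwp2 (0.95), and Piezo2 most like Mcam, an endothelial and mural gene (0.95). Only the E16.5 endothelial gate, with 55 cells, was large enough to be among the sums. The mural sums were of the first gate, with Ndufa4l2, so the Piezo2 value leans on few sums. Ptgs2 was most like Zfp36 (0.95), which encodes an mRNA decay factor, Piezo1 most like Pdlim5 (0.92), Wwtr1 like Msrb3 (0.93), Yap1 like Syde1 (0.93), Tead1 like Rbfox2 (0.97) and Amotl2 like Ttll7 (0.91). Among the members themselves r was 0.81 for Yap1 and Tead1, 0.51 for Yap1 and Wwtr1, and 0.01 for Tead1 and Trpv4.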

How the data were processed

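Single-cell RNA was measured in 3 libraries, 1 each at E16.5, P0 and 13w. The values used are the deposited raw UMI counts per gene and cell, not normalized. Per the file headers they come from Cell Ranger 6.1.2, aligned against GRCm39 per the submitters' processing notes; other upstream settings are not given in the sources used here. From these counts, cells with at least 500 genes and at most 10% mt- UMIs were kept, counts were summed over groups of cells, and CPM was computed with exact 95% Poisson intervals; ratios have exact binomial intervals conditional on the total of both counts. Cells are not replicates and no p-value was computed. A count of 0 allows up to 3 counts. UMIs are independent molecules only as far as their collapsing was complete, so the intervals are lower limits of the error.

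A ratio was called past 2-fold where the higher sum reached 10 CPM. Cells were typed by marker gates (at least 3 markers of a cell type and 5 of its UMIs per 10000; Col10a1 and Bglap at 10 and Prg4 at 3 UMIs per 10000; at least 2 UMIs of Mki67 or Top2a), not by clustering, and 10 cells were the least described. No doublet caller was run; leaving out the 5% of cells with the most UMIs is an alternative, as are TMM (edgeR) and median-of-ratios scaling, equal cell weights, and other gates and limits. The scripts were tested on simulated data. Cells were thinned to 3000 UMIs with shallower ones left out (23, 75 and 57 Col9a1-high and 147, 49 and 264 Col9a1-low cells at E16.5, P0 and 13w). Cells near the Col9a1 cut, at 2 to under 4 per 10000, numbered 239, 171 and 453.

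Named genes are all members; from each of 6 wider lists, up to 3 genes furthest past 2-fold on either side; and up to 3 genes most like each member, of which the text names some; 1 result is not reported here. The members and lists were chosen with earlier results of these data known. Immediate early genes, the Col10a1 comparison, the thinned sums and the mural gate without Ndufa4l2 were added after seeing the data. Python 3.11.15, numpy 2.4.6, scipy 1.17.1 and pandas 2.3.3 were used, with edgeR 4.0.16 in R 4.3.3.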

Additional observations from a re-analysis of the deposited data

Results flagged for a closer look

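Piezo1 was picked out because its difference across the Col9a1 gate pointed one way in the 13w library and the other way in both others. The log2 ratio of Col9a1-high over Col9a1-low cells was -0.35 at 13w and 1.47 at P0, a gap of -1.82, and against the 1.32 at E16.5 the gap was -1.67. The same counts read by age gave a 13w over P0 log2 ratio of -0.56 in Col9a1-high cells and 1.26 in Col9a1-low cells, again a gap of -1.82. The differences were not tested, since each age is 1 library, and the -0.35 was 0.03 under TMM scaling.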

How the results depend on the processing

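No paired analysis was possible because each age has 1 library and no test was made. Of 820 alternative values of single ratios, 530 moved by less than their counting interval, 290 moved further and 0 of the called ratios changed sign. The 820 and the 530 include the runs with a 1.5-fold threshold or no minimum level. Those runs cannot move a ratio, so the 530 overstates how stable the ratios were. Of 104 alternative counts of members past 2-fold, 86 stayed within 1.5 times the main count. With a threshold of 1.5-fold the count was 5 for P0 over E16.5 in all kept cells (main 3) and 5 in Col9a1-high cells (main 1), 2 for 13w over P0 in Col9a1-high cells (main 1), and in Col9a1-low cells 2 for P0 over E16.5 (main 1) and 5 for 13w over P0 (main 3). With no minimum level it was 3 for 13w over P0 in all kept cells (main 1), 2 in Col9a1-high (main 1) and 5 in Col9a1-low cells (main 3). Weighing cells equally gave 0 for P0 over E16.5 in Col9a1-low cells (main 1) and 3 across the Col9a1 gate at both E16.5 and P0 (main 5). With the gate at 1 Col9a1 UMI per 10000 the count across the gate was 1 at E16.5 and 3 at P0 (main 5); with the gate at 10 it was 1 at 13w (main 2), and 2 for 13w over P0 in Col9a1-high cells (main 1). Allowing 5% mitochondrial UMIs gave 1 across the gate at 13w (main 2). Thinned cells, added after seeing the data, gave 2 for 13w over P0 in Col9a1-high cells and 0 for P0 over E16.5 in Col9a1-low cells (main 1 each). Apart from the fewer or more genes that a threshold or minimum admits, the cause was not tested. Trpv4 stayed past 2-fold across the gate in every alternative run, at log2 ratios of 1.73 to 2.44 at E16.5, 2.10 to 3.57 at P0 and 1.44 to 2.43 at 13w. Ptgs2 across the gate fell short of 2-fold at E16.5 with equal cell weights (0.70), without the deepest 5% of cells (0.68) and with the gate at 1. Piezo1 did so at E16.5 with the gate at 1 (0.96). Under TMM Piezo1 was past 2-fold at P0 over E16.5 (1.13) and Tead1 was not lower past 2-fold at E16.5 or P0. Piezo2 and Ankrd1 are limited by their counts.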
